A study of Mus musculus with 6 samples.

Results

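Tumor necrosis factor (Tnf), the lymphotoxins (Lta and Ltb) and both TNF receptors (Tnfrsf1a and Tnfrsf1b) were followed across CD45+ cells of digested arthritic joints. The 5 genes were taken by symbol from the 20394 genes of the count table, and all 5 were present. The cells came from male C57BL/6 mice with antigen-induced arthritis (AIA), which every group shared: 10 μg of methylated bovine serum albumin (mBSA) in complete Freund's adjuvant under the skin, then 100 μg of mBSA into the knee on day 21. PBS, the vehicle, was injected into the peritoneum for 2 of the 6 samples, and PEPITEM, a peptide, at 300 μg for the other 4, from day 21. Because no source used here ties a cell to its sample, the treatments were not compared. The 32953 cells fall into 6 libraries by the number that ends their barcode, and these are libraries of unknown treatment. They show how far a value moved between libraries, and they were not used as replicates of a group.

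TNF is made as a membrane-bound trimer that a protease sheds from the cell. Tnfrsf1a encodes TNF receptor 1, a death domain receptor found on most cell types, and Tnfrsf1b encodes TNF receptor 2, which lacks a death domain and is known mainly from leukocytes and endothelium. Secreted lymphotoxin α (Lta) also binds these receptors, whereas lymphotoxin β (Ltb) holds lymphotoxin α at the membrane as a heterotrimer that binds a receptor of its own, Ltbr. TNF is a target of treatment in human arthritis.

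The ligand genes are neighbors in the major histocompatibility region of chromosome 17. In GENCODE vM21 (GRCm38, the build that the submitters' notes name mm10), Ltb lies at chr17:35194439-35196320 on the plus strand, Tnf at chr17:35199381-35202007 and Lta at chr17:35203165-35205351, both on the minus strand. Between Ltb and Tnf there are 3060 bases, between Tnf and Lta 1157 bases, and all 3 genes fit into 10913 bases. The receptor genes are apart: Tnfrsf1a is at chr6:125349362-125362484 on the plus strand and Tnfrsf1b at chr4:145213463-145246870 on the minus strand.

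The sequences just before the start sites of the 3 ligand genes and of Tnfrsf1b are shown. The ligand genes are neighbors that differed in which cells held their RNA. Tnfrsf1b was 7.83-fold higher in neutrophil-like than in neutrophil precursor-like cells. The sequences come from RefSeq promoters (GRCm38.p6), run 5′ to 3′ on the strand of the gene, and end where annotated exons begin. Bases are counted back from the RefSeq start site, which for Ltb (35194507) lies inside the GENCODE gene. Capitals mark TATAAA, the GC box GGGCGG and the NF-κB consensus, searched on both strands. The regions are chr17:35202008-35202257 (minus) for Tnf, chr17:35205352-35205601 (minus) for Lta, chr17:35194257-35194438 (plus) for Ltb and chr4:145246871-145247120 (minus) for Tnfrsf1b.
Tnf: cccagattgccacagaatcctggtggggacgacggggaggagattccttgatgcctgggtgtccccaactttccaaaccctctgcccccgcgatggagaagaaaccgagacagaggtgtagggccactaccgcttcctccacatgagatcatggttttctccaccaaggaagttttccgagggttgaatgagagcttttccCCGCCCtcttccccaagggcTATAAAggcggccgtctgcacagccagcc
Lta: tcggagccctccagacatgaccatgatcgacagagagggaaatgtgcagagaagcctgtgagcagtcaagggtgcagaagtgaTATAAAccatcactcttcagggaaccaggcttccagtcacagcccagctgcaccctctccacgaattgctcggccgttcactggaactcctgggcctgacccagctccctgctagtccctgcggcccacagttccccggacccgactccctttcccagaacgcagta
Ltb: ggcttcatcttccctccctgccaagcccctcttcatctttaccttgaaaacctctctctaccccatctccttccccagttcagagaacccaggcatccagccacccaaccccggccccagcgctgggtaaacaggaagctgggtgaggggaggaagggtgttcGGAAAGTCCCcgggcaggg
Tnfrsf1b: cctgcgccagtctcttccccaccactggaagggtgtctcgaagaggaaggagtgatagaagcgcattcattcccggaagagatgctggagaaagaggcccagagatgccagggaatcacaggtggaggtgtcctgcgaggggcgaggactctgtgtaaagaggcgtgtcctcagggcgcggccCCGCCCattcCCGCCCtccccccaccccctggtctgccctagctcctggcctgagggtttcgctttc

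In the 250 bases before the start site, Tnf had TATAAA beginning 29 bases and a GC box 49 bases upstream. Lta had TATAAA only at 167 bases, and Ltb had neither but a match to the NF-κB consensus at 87 bases. Tnfrsf1b had GC boxes at 67 and 57 bases, and Tnfrsf1a had none of the 3 motifs. Of 27025 mouse promoters of this length, 13% held TATAAA, 32.9% a GC box and 7.01% the NF-κB consensus. A match is a description of the letters and not a shown site, and the absence of one speaks only of this window.

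Cells were assigned to classes by markers that did not include the 5 genes. A cell needed at least 0.5 of the markers of its class, at least 3 of them, and a fraction exceeding that of every other lineage by 0.3. This placed 26118 cells, of which 26049 were in the 25 classes with at least 50 cells, named below as "-like" cells. Plasma cell-like (28), erythroid-like (18), basophil-like (18) and endothelial-like (5) cells were too few to describe. The other 6835 cells (20.7%) stayed ungated, 3500 of them because markers of another lineage were too near, and 1292 cells lay within 0.1 under that limit and 1909 within 0.1 above it. In ungated cells, the 10 neutrophil markers summed to 46916 to 139881 UMIs per 1000000 between libraries, against 675.5 to 1093 in classical monocyte-like cells. Their part in the values below was not tested. Ungated cells held 40.8% of the Tnf UMIs (unique molecular identifiers, each marking 1 captured RNA molecule), 39.2% of those of Tnfrsf1a, 40.0% of those of Tnfrsf1b, 24.6% of those of Ltb and 8.03% of those of Lta, beside 36.0% of all UMIs. The largest groups sat in clusters named for inflammatory macrophages (2126 cells) and resident macrophages (688 cells), where their Tnf levels were 75.3 and 195.0 CPM. The gated classes include immature ones: 326 stem and progenitor cell-like, 587 promyelocyte-like, 1986 neutrophil precursor-like and 1091 B cell precursor-like cells. Whether a cell came from the synovium or from marrow of the digested joint was not tested. The levels, UMI parts and library ranges below do not separate these sources.

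Levels are given as CPM, the UMIs of the gene per 1000000 UMIs of the class, with an exact Poisson 95% interval, and shares as percent of cells with at least 1 UMI, with an exact binomial 95% interval. Both intervals cover counting error only. For shares, each cell was thinned to 5000 UMIs and shallower cells were left out. The libraries held 47273569 to 123367661 UMIs, with 9923 to 14001 in their median cell. Of the barcodes, 138 occurred in a pair of libraries, and no level in a class of at least 5 CPM moved by over 1.5 times without these 276 cells. Over all cells, Tnfrsf1b (140.3 CPM, 59.8% of unthinned cells) and Tnfrsf1a (124.8 CPM, 61.0%) were the most widely detected, Tnf (55.6 CPM, 28.8%) and Ltb (46.8 CPM, 30.3%) followed, and Lta (1.20 CPM, 0.689%) was rare.

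**Figure D1:**
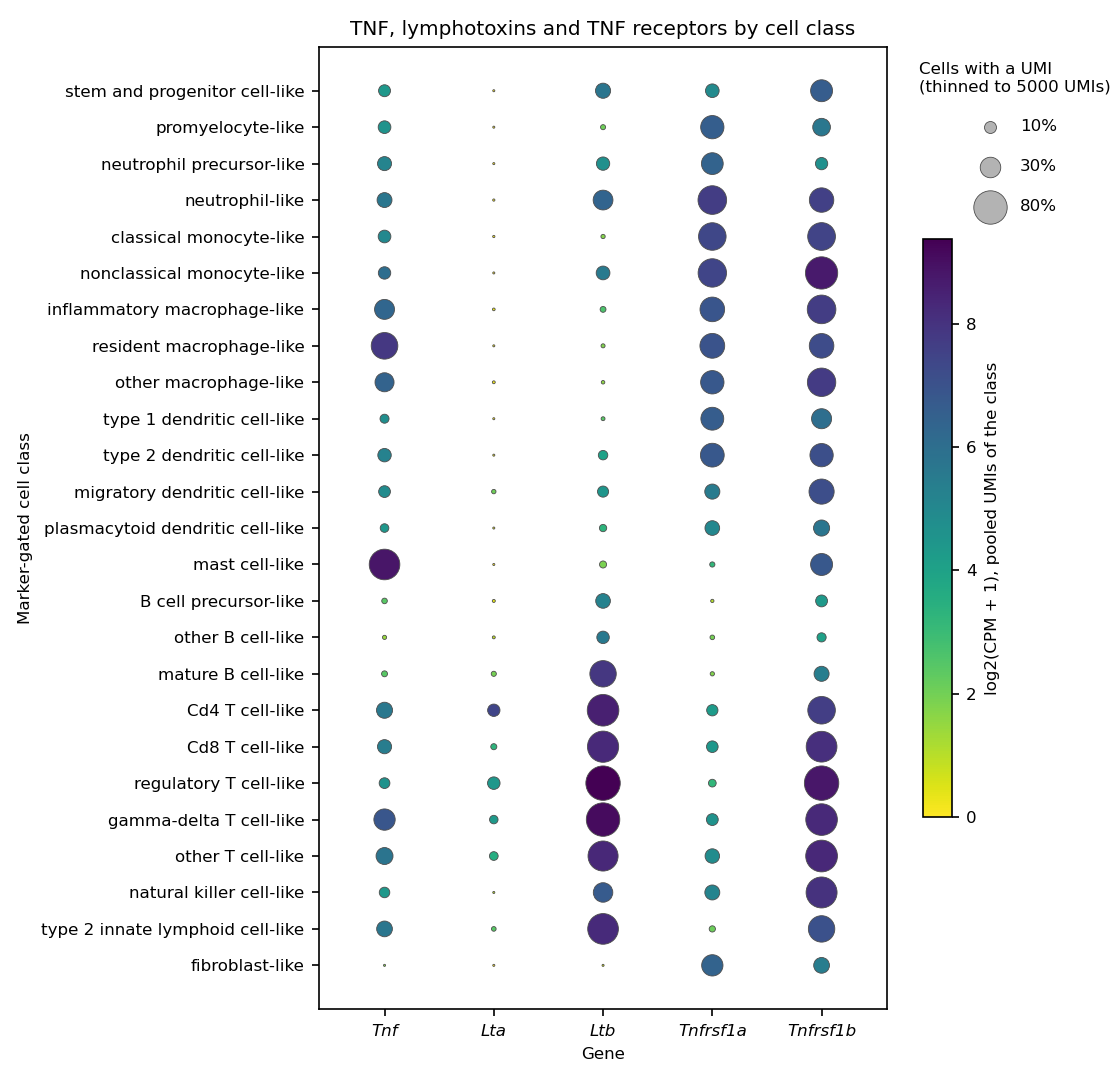
Level (color, log2(CPM + 1) of pooled UMIs) and share of cells with a UMI after thinning to 5000 UMIs (dot area) for each gene (x axis) in the 25 classes (y axis). Tnf peaks in mast cell-like and resident macrophage-like cells, Ltb in lymphoid classes and neutrophil-like cells, Tnfrsf1a in myeloid classes, and Tnfrsf1b is spread over myeloid and T cell-like classes.

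Tnf, the founding ligand of the family and a cytokine that activates endothelium and leukocytes, was highest in mast cell-like cells at 458.8 CPM (411.2–510.3, 339 UMIs in 159 cells). The libraries with at least 20 such cells had 386.2, 445.6 and 482.7 CPM, and those with 11 to 16 cells ranged from 258.2 to 748.1 CPM. After thinning, 67.2% of the mast cell-like cells held Tnf (54.0–78.7). Only 61 of the 159 reached 5000 UMIs, as their median was 3922. The 8 resident macrophage markers were each in at most 2.52% of them, and 87.4% held the most frequent marker of the general macrophage list. Neutrophil markers summed to between 216.3 and 11710 CPM in the libraries of this class, and their part in the value was not tested.

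Resident macrophage-like cells were next at 228.4 CPM (222.5–234.3, 5826 UMIs in 1879 cells). They were gated by the markers Lyve1, Cd163, Timd4, Folr2, Vsig4, Trem2, Aqp1 and Fxyd2, and lining and sublining cells were not told apart. Their libraries ran from 122.2 through a median of 220.2 to 301.2 CPM. In each of the 3 libraries with at least 20 mast cell-like cells, these exceeded the resident macrophage-like cells, and the ranges did not overlap. Among macrophages the level depended on the markers: inflammatory macrophage-like cells had 78.7 CPM (53.2, 83.3 and 89.1 as lowest, median and highest library), a 2.90-fold difference seen in 6 of 6 libraries without overlap. Classical monocyte-like cells, whose type gives rise to many macrophages, had 31.3 CPM (20.2, 26.2 and 68.9). Resident macrophage-like cells exceeded them 7.30-fold in 6 of 6 libraries. Thinned shares followed the same order, at 50.7% (48.3–53.1), 28.3% (24.2–32.6) and 11.3% (10.3–12.4), with 153, 8 and 81 shallow cells left out. By comparison, 1.80% of B cell-like cells (median 5753 UMIs) held Tnf, and 4 of 108 fibroblast-like cells did before thinning (3.70%, 1.02–9.21).

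By number of molecules, resident macrophage-like cells held 21.5% of all Tnf UMIs with 5.24% of all UMIs, the largest part of any named class. Between libraries that part ranged from 5.42% to 33.9%. Neutrophil-like cells held 12.6% at a level of 51.4 CPM (37.2, 55.2 and 124.5), and all mast cell-like cells 1.25%. Tnf was unevenly spread over single cells: the 1% of positive cells with the most (95 cells) held 10.4% of its UMIs, with up to 103 in a cell.

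Among lymphoid classes, gamma-delta T cell-like cells, which carry a distinct T cell receptor and respond early in tissues, had the highest pooled Tnf at 116.2 CPM (97.7–137.2). The libraries with at least 20 of them had 61.0, 87.6 and 92.3 CPM, all under the pooled value, and those with 10, 18 and 19 cells had 66.8, 124.9 and 262.4 CPM. The pooled level was above the regulatory T cell-like cells at 23.8 CPM, although only 1 library had 20 cells of both. Type 2 innate lymphoid cell-like cells had 50.6 CPM, with 13.2, 103.4 and 124.4 CPM in the libraries with at least 20 cells, so by the median of libraries they stood above the gamma-delta class (103.4 against 87.6). Without library 4 they had 32.8 CPM. The next classes in the order overlapped between libraries: other macrophage-like (86.0 CPM), inflammatory macrophage-like (78.7), nonclassical monocyte-like (66.0), other T cell-like (53.6) and neutrophil-like cells (51.4). Of the 54 UMIs in nonclassical monocyte-like cells 25 came from 1 cell, and the level was 36.0 CPM without it and 39.1 CPM without library 6. Mature B cell-like cells had 4.38 CPM and natural killer cell-like cells 19.8 CPM.

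**Figure D2:**
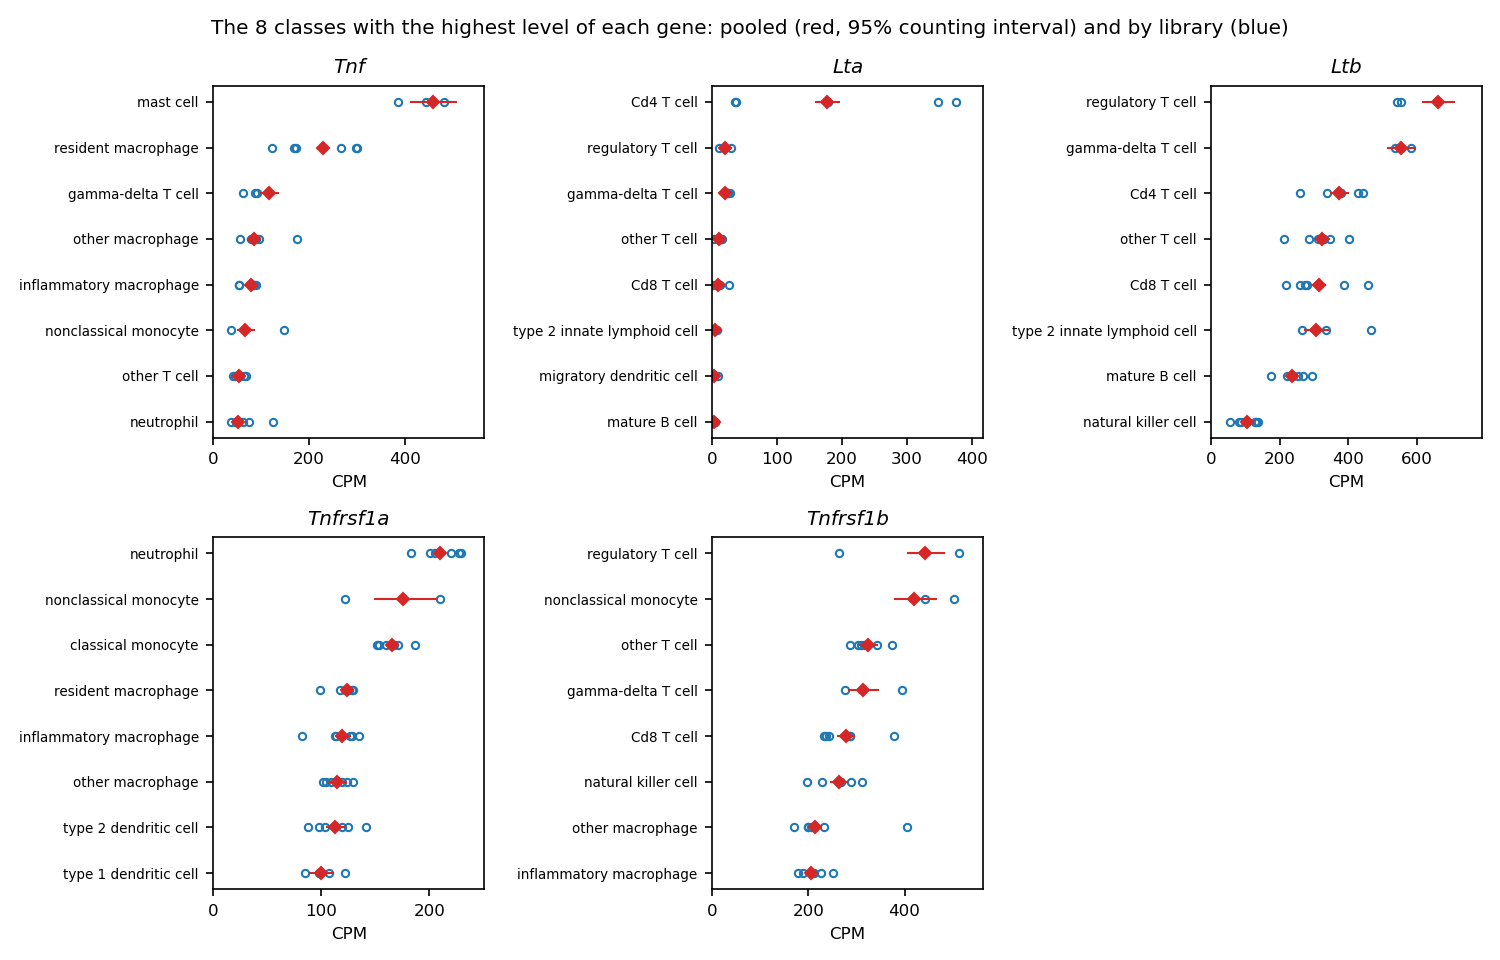
Levels in CPM (x axis) of each gene in its 8 highest classes (y axis), pooled with the 95% counting interval (red) and in each library with at least 20 cells of the class (blue). Mast cell-like cells stay above resident macrophage-like cells for Tnf, whereas Lta in Cd4 T cell-like cells ranges from 34.8 to 374.8 CPM between libraries.

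Lta, the secreted lymphotoxin of activated lymphocytes, was scarce, with 585 UMIs in 227 cells. T cell-like cells held 76.6% of these UMIs and B cell-like cells 10.6%. In Cd4 T cell-like cells the level was 176.2 CPM (158.0–196.0), next to 20.1 CPM in regulatory T cell-like, 19.2 in gamma-delta T cell-like, 11.0 in other T cell-like and 8.90 in Cd8 T cell-like cells (5.65 without library 4 and 5.72 without cycling cells). Mature B cell-like cells had 2.86 CPM (1.59, 2.51 and 4.07), with 49 UMIs in as many cells. The 3739 classical monocyte-like cells had 3 UMIs, the 8527 neutrophil-like cells 4, and the 1986 neutrophil precursor-like cells none, where the interval reaches up to 0.0944 CPM. Thinned, 10.7% of Cd4 T cell-like cells held Lta (6.44–16.3) and 0.0557% of neutrophil-like cells.

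A few cells made up the Cd4 value. The 9 cells with at least 10 Lta UMIs were all Cd4 T cell-like, came from 4 libraries and held 306 of the 585 UMIs (52.3%). The highest had 75, 52, 43, 42 and 31 UMIs. All 9 had Cd4 UMIs, which the gate of this class requires, and UMIs of Cd3e, itself a marker of the T cell gate. Il17a, the cytokine of type 17 helper cells, was present in 5 of them with up to 49 UMIs, and Ifng, that of type 1 helper cells, in 4 with up to 43. Tnf in these cells was 0 to 5 UMIs, and Ltb ranged from 1 to 38. In the libraries, Cd4 T cell-like cells had 374.8, 348.2, 177.6, 36.3 and 34.8 CPM, and the library with only 18 such cells had none. Without library 3 the level was 119.6 CPM, and as a mean that weighs each cell alike it was 60.4 CPM.

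All 9 cells carried markers of dividing cells. Of 1000 T cell-like cells, 107 held at least 2 of the markers Mki67, Top2a, Birc5 and Cdk1, and Lta was 160.5 CPM in them (144.1–178.2, 350 UMIs) against 11.9 CPM (9.62–14.4) in the other 893. Of the 350 UMIs, 306 came from the 9 cells, and the other 98 cycling cells had 24.1 CPM (17.5–32.4). Within Cd4 T cell-like cells the values were 430.2 CPM in 34 cycling and 14.4 CPM in 154 other cells, and 45.2 CPM (26.8–71.5) in the 25 cycling ones left without the 9. Thinned to 5000 UMIs, 20 of 105 cycling T cell-like cells held Lta (19.0%) and 34 of 791 others (4.30%). Without the 9 cells, 11 of 96 cycling ones did (11.5%). Cycling cells were deeper, with a median of 19141 UMIs against 8678. Ltb did not share this pattern, at 349.9 CPM in cycling and 403.9 CPM in other T cell-like cells, and Tnf was 51.4 and 53.7 CPM.

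**Figure D3:**
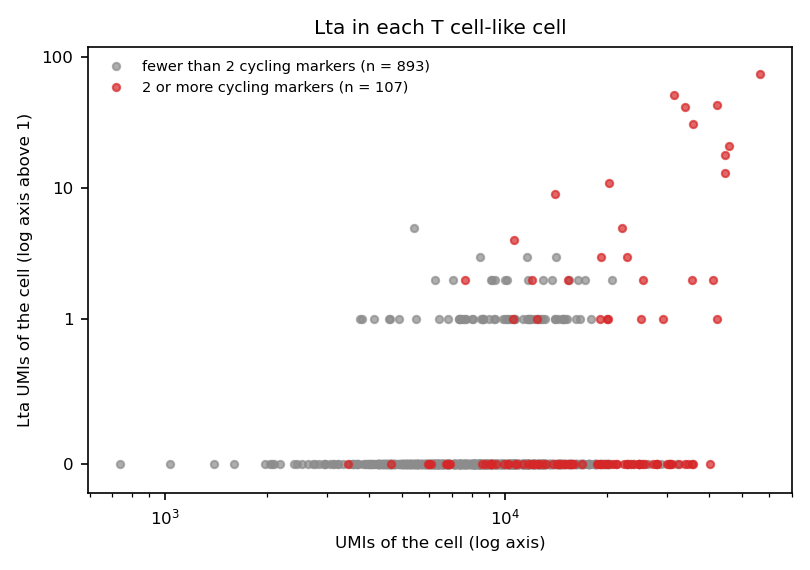
Lta UMIs (y axis, log above 1) against all UMIs (x axis, log) of each of the 1000 T cell-like cells, 107 with at least 2 cycling markers (red) and 893 others (gray). The 9 cells with at least 10 Lta UMIs are all red and lie at 20350 to 56474 UMIs.

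Ltb, the membrane anchor of lymphotoxin, was the leading ligand of lymphoid classes. It reached 663.6 CPM (616.2–713.7) in regulatory T cell-like cells, which hold the transcription factor Foxp3 and restrain immune responses, and 554.4 CPM (513.0–598.3) in gamma-delta T cell-like cells. For regulatory T cell-like cells, the libraries had 542.5, 923.5, 553.5, 936.9, 552.1 and 958.6 CPM, of which only libraries 1 and 3, at 542.5 and 553.5 CPM, had at least 20 cells. Their place above gamma-delta T cell-like cells was not fixed. The gamma-delta class led from clusters (502.9 against 479.3 CPM) and by the median of libraries (553.5 against 548.0 CPM). Cd4 T cell-like (373.7 CPM), other T cell-like (325.1), Cd8 T cell-like (314.7) and type 2 innate lymphoid cell-like cells (306.8) overlapped between libraries. Thinned shares were 85.0% in regulatory, 80.4% in gamma-delta and 71.6% in Cd4 T cell-like cells. Thus at 5000 UMIs most T cells of each kind had an Ltb molecule counted, and 2.17% of inflammatory macrophage-like cells (median 17588 UMIs) did.

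B cells were graded by maturity. Mature B cell-like cells had 236.3 CPM of Ltb (173.8, 245.0 and 293.3), B cell precursor-like cells 36.1 CPM (27.6, 35.5 and 69.9) and other B cell-like cells 47.0 CPM, and the mature class was above both in 6 of 6 libraries without overlap. Leaving out cells with cycling markers raised the precursor value to 86.6 CPM. Over all B cell-like cells, the 842 cycling ones had 20.9 CPM and the 4601 others 176.7 CPM. Natural killer cell-like cells, at 104.5 CPM, lay under mature B cell-like cells in 6 of 6 libraries.

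Among myeloid classes, neutrophil-like cells had the highest Ltb level, 83.6 CPM (81.4–85.8; libraries 67.5, 84.3 and 89.9). Nonclassical monocyte-like cells followed at 46.4 CPM (32.9–63.8), then neutrophil precursor-like (25.0), migratory dendritic cell-like (21.4) and type 2 dendritic cell-like cells (15.3), whereas classical monocyte-like cells had 2.34 CPM (1.66, 2.15 and 3.63) and resident macrophage-like cells 2.43 CPM. Neutrophil-like cells exceeded the last pair 35.8-fold and 34.4-fold, in 6 of 6 libraries, and nonclassical monocyte-like cells 1.80-fold, in both libraries with enough cells. The macrophage values changed with the class definition. The cluster named for resident macrophages had 17.8 CPM of Ltb, and its 688 ungated cells 35.9 CPM. Inflammatory macrophage-like cells had 5.26 CPM, but 19.4 CPM from clusters and 16.4 CPM without the margin between lineages. The clusters named for classical monocytes had 2.57 and 2.45 CPM. The cause of these shifts was not tested. The thinned share was 27.9% (26.7–29.1) in 5387 neutrophil-like cells, 3140 shallow ones left out, 13.3% in nonclassical monocyte-like and 1.01% in classical monocyte-like cells. No gene of the T cell list or of the general B cell list was in over 5.28% of the neutrophil-like cells, and these lists of 7 summed to at most 12.4 CPM for T cells and 59.4 CPM for B cells in any library. The gate itself removes cells with many markers of another lineage, so these low values are partly set by it, and the part of other cells in the Ltb level was not tested. Because neutrophil-like cells were many, they held the largest part of Ltb UMIs of any named class at 24.3%, with 18.0% in all T cell-like and 22.0% in all B cell-like cells. Between libraries the neutrophil part ranged from 6.94% to 36.1%.

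Tnfrsf1a, the death domain receptor, was a gene of myeloid classes and fibroblast-like cells. Neutrophil-like cells had 210.2 CPM (206.7–213.7), with libraries at 183.5, 212.8 and 229.3. Nonclassical monocyte-like cells, which patrol vessels, had 176.0 CPM, classical monocyte-like cells 165.4 CPM (152.0, 163.5 and 187.1), and the neutrophil and monocyte ranges overlapped although neutrophil-like cells were higher in 6 of 6 libraries. Classical monocyte-like cells were above resident macrophage-like cells (123.6 CPM, 98.8 to 129.6) in 6 of 6 libraries without overlap. The macrophage classes and type 2 dendritic cell-like cells lay between 112.8 and 123.6 CPM, with overlapping libraries. Fibroblast-like cells, outside the sorted CD45+ population, had 85.0 CPM from 142 UMIs.

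Lymphoid cells had little of it. All T cell-like cells had 21.2 CPM (14.1, 20.7 and 31.1), a level 7.82 times lower than in classical monocyte-like cells, and natural killer cell-like cells had 34.5 CPM. B cell-like cells had 2.13 CPM, with 86 UMIs in 5443 cells, and mast cell-like cells 8.12 CPM from 6 UMIs. Thinned shares were 58.7% in neutrophil-like, 54.3% in classical monocyte-like, 10.4% in T cell-like and 0.929% in B cell-like cells. The mast cell-like value rose to 40.1 CPM when the class was taken from clusters and to 21.6 CPM without the margin over other lineages. The Cd4 T cell-like value rose in the same way from 18.1 CPM to 37.1 and 30.3 CPM. Natural killer cell-like cells had 52.9 CPM from clusters. The low lymphoid levels therefore changed with the class definition.

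Tnfrsf1b, the receptor without a death domain, was highest in regulatory T cell-like cells at 443.0 CPM (404.4–484.3). The 6 libraries had 263.2, 475.7, 514.2, 459.2, 502.8 and 777.7 CPM, with 11 to 40 cells each. Nonclassical monocyte-like cells had 420.5 CPM (377.2–467.4), and their libraries, with 7 to 30 cells, ranged from 302.9 to 503.6. The order of these classes was not fixed, since leaving out library 3 put nonclassical monocyte-like cells first at 423.3 against 408.6 CPM. In both libraries with enough cells, nonclassical exceeded classical monocyte-like cells (176.7 CPM), 2.38-fold in the pooled cells. Taken from clusters, the nonclassical level was 207.5 CPM, and the cluster so named held 485 ungated among its 675 cells. Regulatory exceeded Cd4 T cell-like cells (201.6 CPM) 2.20-fold, in the 2 libraries that could be compared, and their ranges overlapped. Thinned shares were 85.0% in regulatory T cell-like (76.5–91.4), 74.7% in nonclassical monocyte-like (64.0–83.6) and 42.7% in neutrophil-like cells (41.4–44.0), next to 5.76% in other B cell-like cells (median 5287 UMIs).

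Other lymphoid classes also held this receptor: other T cell-like 324.8 CPM, gamma-delta T cell-like 312.7, Cd8 T cell-like 278.2 and natural killer cell-like cells 262.9. All T cell-like cells (298.9 CPM) were 10.8-fold above all B cell-like cells (27.8 CPM), in 6 of 6 libraries. Within the mature B cell-like class, the cells of a cluster led by Bank1, Ighd and Fcer2a had 99.1 CPM (75.5, 106.0 and 132.5) and those of a cluster led by Ms4a1, Iglc2 and Iglc1 25.6 CPM (19.9, 28.7 and 32.7), without overlap. For Ltb these clusters had 287.6 and 318.9 CPM, and their libraries overlapped. The third, led by Cecr2 and Atp1b1 and named for B cell precursors, had 76.3 CPM of Ltb, without overlap with either, and 13.8 CPM of Tnfrsf1b in its 563 mature B cell-like cells. Taken from the clusters named for mature B cells, the level of Tnfrsf1b was 73.1 CPM in place of 41.5. Those clusters include a further cluster led by Jchain and Igha, with 119.8 CPM of Tnfrsf1b and 273 ungated among its 352 cells. The whole clusters led by Bank1 and by Ms4a1 had 100.4 and 26.8 CPM. In myeloid classes the level was 206.0 CPM in inflammatory macrophage-like, 195.0 in neutrophil-like, 176.7 in classical monocyte-like and 150.1 in resident macrophage-like cells, and neighbors in this order overlapped between libraries.

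**Figure D4:**
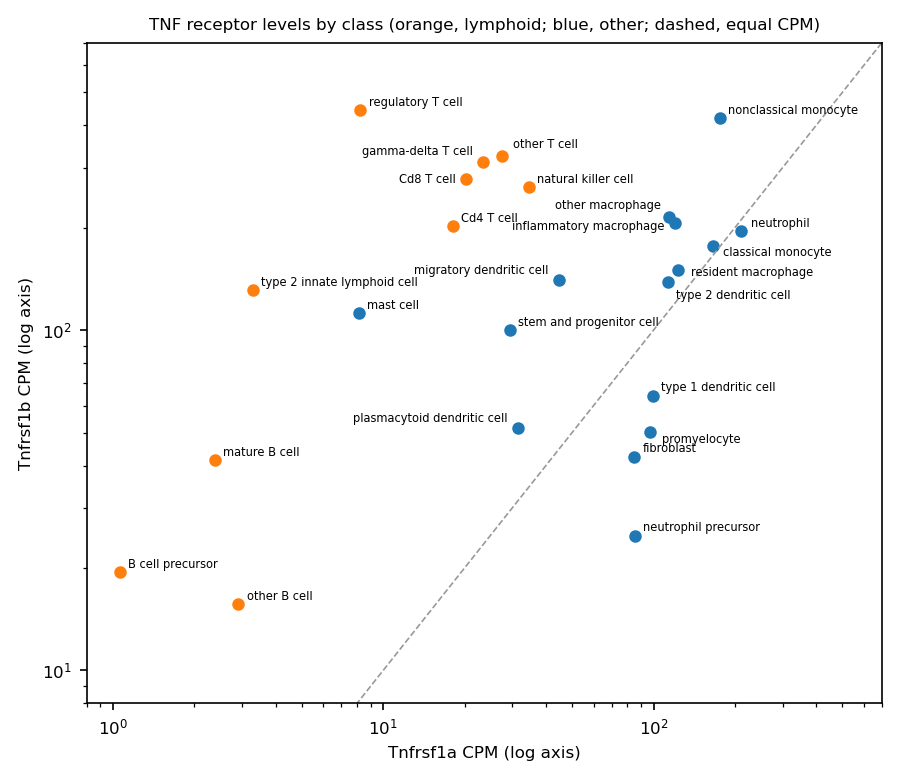
Tnfrsf1b (y axis) against Tnfrsf1a (x axis) in CPM on log axes, 1 point for each of the 25 classes, lymphoid in orange and other in blue, with a dashed line at equal CPM. Lymphoid and mast cell-like points lie far above the line, the mast cell-like point from 6 Tnfrsf1a UMIs. Classical monocyte-like, macrophage-like and neutrophil-like points lie nearer to it (ratios 0.927 to 1.88), and the nonclassical monocyte-like point lies above it (2.39). Neutrophil precursor-like, promyelocyte-like, fibroblast-like and type 1 dendritic cell-like points lie under it.

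The balance of the receptors differed between lineages. UMIs from the 3′ end count 1 per transcript whatever its length, but capture may differ between the genes, so the ratio is read between classes. Tnfrsf1b to Tnfrsf1a was 14.1 in all T cell-like (9.23, 16.1 and 18.7 by library) and 13 in all B cell-like cells. It was 1.41 in all macrophage-like cells (1.17 to 1.93), 1.07 in classical monocyte-like (0.824 to 1.29) and 0.927 in neutrophil-like cells (0.805 to 1.34), where 3 of 6 libraries were on each side of 1. Neutrophil precursor-like cells, at 0.292 (0.245 to 0.522), and promyelocyte-like cells, at 0.517 (0.304 to 0.614), were under 1 in every library with enough cells, as were type 1 dendritic cell-like cells at 0.645. Regulatory T cell-like cells had 484 UMIs of Tnfrsf1b and 9 of Tnfrsf1a, although their Tnfrsf1a level of 8.24 CPM became 37.1 CPM when taken from clusters and 21.6 CPM without the margin.

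Within the neutrophil lineage, levels differed between precursor-like and neutrophil-like cells, and how many of all genes did so was not counted. From neutrophil precursor-like to neutrophil-like cells, Tnfrsf1b was 7.83-fold higher (24.9 to 195.0 CPM), Ltb 3.34-fold (25.0 to 83.6) and Tnfrsf1a 2.46-fold (85.3 to 210.2), each in 6 of 6 libraries without overlap. Tnf differed 1.49-fold (34.5 and 51.4 CPM), higher in 6 of 6 libraries with overlapping ranges. These levels are relative to all UMIs of a class, and the median cell held 17810 UMIs in precursor-like and 6095 in neutrophil-like cells. Before thinning, Tnfrsf1a was in 74.2% of precursor-like and 73.8% of neutrophil-like cells. For Tnfrsf1b these shares were 29.5% and 60.6%, for Ltb 30.8% and 39.9%, and for Tnf 36.7% and 21.1%. Thinned to 5000 UMIs, the shares were 33.8% and 58.7% for Tnfrsf1a and 10.6% and 42.7% for Tnfrsf1b. For Ltb they were 12.5% and 27.9%, and for Tnf 13.9% and 15.7%, with 77 and 3140 shallow cells left out. The part of depth in the CPM differences was not tested. Promyelocyte-like cells, an earlier stage, did not continue the order of the levels for the receptors. Tnfrsf1b was 50.1 CPM in them, above the precursor-like cells in 5 of 5 libraries. Tnfrsf1a was 96.9 CPM, above in 5 of 5, and both had overlapping ranges. Ltb was 3.24 CPM, lower in 5 of 5 libraries without overlap. Leiden clusters, made without the 5 genes, held most of the neutrophil-like cells. They are ordered here by Tnfrsf1a: cluster 28 (led by Ltf and Ly6g, also the main cluster of the precursor-like cells), 9 (Mmp8, Mmp9), 17 (Retnlg, Gm5483), 14 (Gm5483, Stfa2l1) and 13 (Ifitm1, Irg1, Csf1, Ptgs2).

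Tnfrsf1b in these clusters was 22.2, 87.4, 135.3, 320.0 and 555.6 CPM. In cluster 13 the libraries had 514.1, 580.9 and 623.8 CPM and in cluster 14 295.6, 308.7 and 388.7, and no library of one overlapped the other. The next pair down, clusters 14 and 17, did not overlap either, whereas 17 and 9 did (5 of 6 libraries in the same order). Tnfrsf1a was 103.4, 152.5, 224.6, 299.7 and 366.6 CPM, where neighbors from cluster 17 upward overlapped, and Ltb was 45.9, 59.2, 83.2, 100.4 and 182.9 CPM. Tnf was 30.2, 39.8, 39.8, 46.6 and 109.9 CPM, above the others mainly in cluster 13. The libraries of that cluster had 68.4, 113.7 and 388.1 CPM. They overlapped those of clusters 9 and 14, although cluster 13 was above each in 6 of 6 libraries. Median depth moved the other way, at 11324, 9512, 6293, 4726 and 3916 UMIs, and its part was not tested. At an equal depth of 2000 UMIs, Tnfrsf1b was in 5.77%, 12.5%, 23.4%, 46.4% and 64.4% of the cells, with 4 to 58 shallower cells left out of each cluster. For Tnf these shares were 5.41%, 5.81%, 7.03%, 9.35% and 10.6%.

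**Figure D5:**
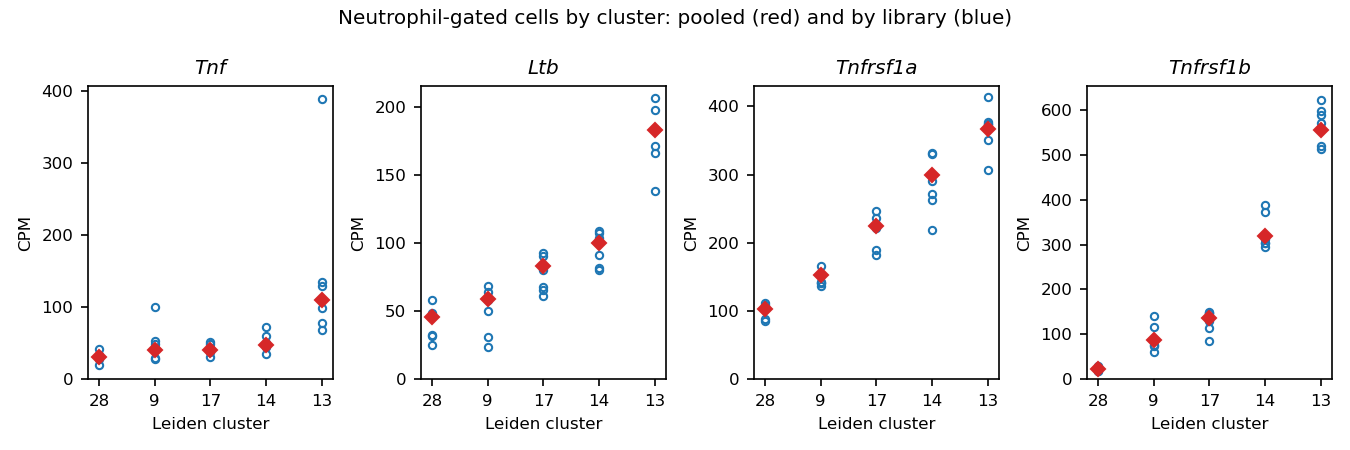
Levels in CPM (y axis) of 4 genes in neutrophil-like cells of 5 Leiden clusters (x axis, ordered by pooled Tnfrsf1a), pooled (red) and in each library with at least 20 cells (blue). Tnfrsf1b goes from 22.2 to 555.6 CPM, and the libraries of clusters 14 and 13 do not overlap.

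Pairs of genes were also counted in single cells after thinning, as counts beside the product of the single shares. Tnf and Tnfrsf1b met in 390 of 1726 resident macrophage-like cells (product 378.2), and Tnf with Tnfrsf1a in 378 (product 383.8). Both receptors met in 1109 of 3658 classical monocyte-like cells (product 1095) and in 1476 of 5387 neutrophil-like cells (product 1349), a class that mixes the clusters above. At least 1 receptor was counted in 79.1% and 74.0% of these cells, in 72.1% of T cell-like cells and in 71.0% of macrophage-like cells. Lta and Ltb met in 46 of 896 T cell-like cells (product 38.6), so 85.2% of the Lta-positive ones also held Ltb. In mature B cell-like cells 22 of the 27 Lta-positive cells held Ltb (product 13.5). Tnf and Lta met in 14 T cell-like cells (product 9.82), and these low counts carry wide error.

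The other genes of the pathway were 37 genes in 7 roles. By the class of the highest CPM, 13 of 37 peaked in a monocyte, macrophage or dendritic cell-like class (9 of the 25 classes) and 13 in a T or innate lymphoid cell-like class (7 classes). Fibroblast-like cells had the peak of 4, B cell-like classes of 3, and neutrophil lineage and mast cell-like classes of 2 each. How the peaks of all 20394 genes divide among the classes was not counted. The counts of peaks here and for each role below are therefore not read as a trait of the pathway. Of the lymphotoxin system, Ltbr, the receptor of the lymphotoxin heterotrimer, was 44.2 CPM in classical monocyte-like, 40.3 in resident macrophage-like and 12.3 in neutrophil-like cells, and had no UMI in regulatory, Cd4 or gamma-delta T cell-like cells. Tnfsf14, which encodes LIGHT, peaked in type 2 innate lymphoid cell-like cells (45.1 CPM).

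Of 5 genes for the release of membrane TNF or its control, 2 peaked in a macrophage-like class and 1 (Frmd8) in nonclassical monocyte-like cells. Fibroblast-like cells had the peak of Rhbdf1 (22.7 CPM) and of the protease inhibitor gene Timp3 (441.0 CPM). Adam17, the shedding protease, had 177.2 CPM in inflammatory and 156.4 in resident macrophage-like cells, against 36.5 in mast cell-like cells. Rhbdf2, which escorts that protease to the surface, had 108.3 CPM in resident macrophage-like and 6.77 in mast cell-like cells. Frmd8, which stabilizes the complex, had 51.3 CPM in nonclassical monocyte-like, 44.4 in Cd4 T cell-like, 19.6 in resident macrophage-like and 5.41 in mast cell-like cells. In mast cell-like cells 3 UMIs make 4.06 CPM, so their Rhbdf2 and Frmd8 values rest on few molecules. Among 5 genes for proteins that bind and destabilize RNAs such as that of Tnf, Zfp36 (tristetraprolin) was highest in mast cell-like (2068 CPM), fibroblast-like (1359) and resident macrophage-like cells (1278). The first and last are also the classes with the most Tnf. Zfp36l2 peaked in natural killer cell-like cells (630.0 CPM) and Zfp36l1 in fibroblast-like cells (1575 CPM).

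Of the feedback inhibitors, 4 of 5 peaked in T or innate lymphoid cell-like classes. Tnfaip3 (A20) was the exception, with 2347 CPM in mast cell-like cells, 1156 in type 2 innate lymphoid cell-like and 182.0 in resident macrophage-like cells. Nfkbia, the inhibitor of NF-κB that NF-κB itself induces, had 1962 CPM in type 2 innate lymphoid cell-like cells, and Cyld, a deubiquitinase, 208.7 CPM in regulatory T cell-like cells. The receptor complex with Ripk1 had no common peak: its 11 genes peaked in T or innate lymphoid (4), monocyte, macrophage or dendritic (3), B cell-like (3) and fibroblast-like (1) classes. Birc3, a ubiquitin ligase, led with 405.7 CPM in type 2 innate lymphoid cell-like cells, Tab2 had 235.9 CPM in nonclassical monocyte-like and Ripk1 186.1 CPM in fibroblast-like cells.

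The 3 genes listed for signaling from Tnfrsf1b and Ltbr all peaked in migratory dendritic cell-like cells: Traf1 885.9, Map3k14 846.9 and Traf3 818.5 CPM. Traf2, listed with the Ripk1 complex, peaked in regulatory T cell-like cells (43.0 CPM, against 35.3 in migratory dendritic cell-like cells). Regulatory T cell-like cells were second for Traf1 (466.8 CPM) and Traf3 (642.6 CPM), and nonclassical monocyte-like cells were second for Map3k14 (816.5 CPM). These second classes had the most Tnfrsf1b in the pooled cells, in an order that was not fixed, but the match was partial. Regulatory T cell-like cells had 149.2 CPM of Map3k14, under type 1 dendritic cell-like cells (613.7) and Cd4 T cell-like cells (283.7). Nonclassical monocyte-like cells had 250.6 CPM of Traf1, under type 2 dendritic cell-like cells (425.1). Migratory dendritic cell-like cells, which led all 3 genes, had 140.5 CPM of Tnfrsf1b. In the cell death arm, Cflar, which restrains caspase 8, was highest in resident macrophage-like cells (303.2 CPM), and Casp8 and Ripk3 in regulatory T cell-like cells (143.7 and 41.2 CPM). Neutrophil-like cells, the class with the most Tnfrsf1a, had 15.8 CPM of Casp8 and the lowest Ripk3 of all classes at 2.14 CPM.

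Over the 25 classes, the likeness of patterns was described by Pearson's r of log2(CPM + 1). The classes share libraries and their cells, and r is given with no test. Lta and Ltb were the most alike members (r = 0.76), Tnf and Tnfrsf1b had 0.63, Tnfrsf1a and Tnfrsf1b 0.33, and Ltb and Tnfrsf1a −0.52. Tnf and its neighbor Ltb had −0.07. Among 12562 genes with at least 10 CPM in a class, those nearest to Tnf were Lilr4b (0.80), Lilrb4a (0.80), Gpr65 (0.79), Fxyd5 (0.79) and Anxa11 (0.78). Nearest to Lta were Crmp1 (0.94), Slamf1, Cd40lg and Ccr4 (each 0.92) and 1700012B07Rik (0.90). Ltb was followed by Gm42722, Zfp949, Gimap8 and Papolg (each 0.88) and Ccdc88c (0.87). Tnfrsf1a lay nearest to Apobr (0.88), Arpc1b (0.86), Tbkbp1, App and Elovl1 (each 0.85), and Tnfrsf1b to Rab8b (0.83), Lfng, Fyb, Tpst2 and Hopx (each 0.82). Lilr4b and Lilrb4a are near-identical copies whose reads could be split between them.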

How the data were processed

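CD45+ cells sorted from digested joints were profiled with a 3′ single-cell kit. Per the labels and the study's methods, reads were aligned to mm10 with Cell Ranger, ambient RNA was removed with SoupX, doublets with DoubletFinder, and cells were filtered with Seurat. The authors deposited one table of UMI counts (20394 genes, 32953 cells), not scaled for depth. Of its 102584772 stored entries, 1724738 are 0. No further doublet caller was run.

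The barcode numbers are not linked to the sample names, so PBS and PEPITEM were not compared, no test was run, and no standard deviation is given. The 5 members, the markers and the pathway list were chosen with earlier results of these data known, and the gating rule was set after clusters had been seen. The sub-classes used fewer markers: Foxp3 for regulatory T cells, Cd4 or Cd8 genes, at least 2 of 4 for gamma-delta T cells.

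Counts were summed per class and scaled to CPM. Library values needed at least 20 cells. Thinning drew 5000 UMIs per cell without replacement (seed 1). Leiden clusters came from scanpy 1.11.5 (2000 variable genes, 30 components, 15 neighbors, resolution 1) with the 5 genes left out. Named were the 5 members, the markers, the 2 or 3 pathway genes of each role with the highest CPM over all cells, and the 5 genes of the most similar pattern. Cells rich in Lta, cycling cells and the clusters within neutrophil-like and mature B cell-like cells were singled out after their values had been seen. The correlation and thinning steps were tested on simulated or known values.

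Alternatives were clusters, a gate with 1 more marker, a mean over cells, the median of libraries, leaving out each library, cells with at most 5% mitochondrial UMIs and thinning to 2000 UMIs. Added after seeing the data were leaving out shared barcodes, the margin between lineages, the top cell, cycling cells or, for cycling T cells, those rich in Lta.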

Additional observations from a re-analysis of the deposited data

How the results depend on the processing

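No test was run, so the alternatives bear on levels, shares and ratios. Of 1338 values of at least 5 CPM across them, 39 moved by over 1.5 times and 1132 stayed within their counting interval. The settings differed in this: from clusters, 11 of 78 values moved by over 1.5 times and 35 stayed within the interval. Without the margin between lineages, 6 of 90 moved and 61 stayed within it. Leaving out shared barcodes moved 0 of 90, and so did the mitochondrial limit and the gate with 1 more marker. Taken from clusters, Tnf in mast cell-like cells was 361.3 CPM, Lta in Cd4 T cell-like cells 129.5, Ltb and Tnfrsf1b in regulatory T cell-like cells 479.3 and 394.8, Tnfrsf1a in neutrophil-like cells 230.0, and the neutrophil receptor ratio 0.950. Without the margin between lineages, Tnf, Lta, Ltb and Tnfrsf1a in these classes were 406.2, 149.7, 583.2 and 198.3 CPM. As a mean over cells, Lta was 60.4, Tnfrsf1a 259.1 and Tnfrsf1b 517.3 CPM. The median of libraries gave 548.0 CPM for Ltb and 388.7 for Tnfrsf1b, and UMI parts of 17.8% (Tnf, resident macrophage-like), 42.6% (Lta, Cd4), 20.1% (Ltb, neutrophil-like) and 22.3% (Tnfrsf1a, neutrophil-like). Without cycling cells, Lta was 14.4, Ltb 719.2 and Tnfrsf1b 508.2 CPM, and gamma-delta T cell-like cells led Lta. Without its top cell, Lta was 141.6 CPM. At 2000 UMIs the shares were 45.2% (Tnf), 6.42% (Lta), 61.3% (Ltb), 37.8% (Tnfrsf1a) and 60.5% (Tnfrsf1b), and unthinned Tnfrsf1a was 73.8%. The cause of these shifts was not tested.

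Leaving out each library in turn gave 433.8 to 476.5 CPM for Tnf, 119.6 to 232.0 for Lta, 616.3 to 716.8 for Ltb, 206.6 to 215.5 for Tnfrsf1a and 408.6 to 514.7 for Tnfrsf1b. The shares ranged from 65.3% to 70.2%, 8.33% to 11.9%, 82.8% to 88.7%, 58.3% to 59.1% and 84.2% to 85.9%, and the UMI parts from 18.4% to 23.7%, 46.4% to 63.3%, 20.5% to 26.8%, 20.8% to 24.7% and 17.1% to 20.8%, in the same order of genes.

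No paired analysis was possible because no source used here links the libraries to the numbered samples, so PBS against PEPITEM and its replicate block were not run. Classes of 96 to 188 cells rest on few cells in each library, and Lta on few molecules.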

Other observations

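In some classes, cells with at least 2 cycling markers also differed from the others in genes other than Lta. Tnfrsf1b was 123.4 CPM in 912 cycling and 202.2 CPM in 2827 other classical monocyte-like cells, 184.8 and 329.0 CPM in T cell-like cells, and 12.4 and 35.7 CPM in B cell-like cells. Neutrophil precursor-like cells did not share this, with 25.0 CPM of Tnfrsf1b in 968 cycling and 24.8 CPM in 1018 other cells. In promyelocyte-like cells the values were 49.5 and 57.6 CPM. In stem and progenitor cell-like cells, Ltb was 18.3 CPM in 113 cycling and 78.3 CPM in 213 other cells, and Tnfrsf1b was 69.3 and 124.4 CPM. Library 2 held 213 of the 340 Ltb UMIs of that class, whose level of 51.8 CPM was 28.0 without it, 23.1 as a median of libraries and 17.5 from clusters. Tnfrsf1a was closer, at 159.5 and 168.3 CPM in classical monocyte-like cells and 97.5 and 88.8 CPM in promyelocyte-like cells. These levels are relative to all UMIs of the cells, and cycling T cell-like cells were deeper (median 19141 against 8678 UMIs). Before thinning, Tnfrsf1b was in 84.1% of cycling and 81.6% of other T cell-like cells. At 5000 UMIs it was in 56.2% and 70.7%. The part of depth in the differences of this paragraph was not tested. The split was made after these values had been seen.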
